A study of Mus musculus with 4 samples.

Results

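The genes described here are 10 genes of dendritic cell identity and T cell costimulation, chosen by name from a table of 54078 features measured in mouse kidney after ischemia-reperfusion (I/R). They are the cytokine receptor Flt3, the surface proteins Itgax, Clec9a and Cd209a, the transcription factors Zbtb46, Batf3 and Irf4, and the costimulation and maturation molecules Cd83, Cd86 and Cd40. All 10 were found in the table, each on 1 gene identifier. The study compared 2 RNA-seq libraries from WT with 2 from Apela Ksp KO mice, each made from RNA that was pooled over 3 males. WT mice were Cre-negative littermates carrying floxed Apela on both alleles, and KO mice carried the same alleles with Cre driven by the Ksp-cadherin promoter, which is active in renal tubular epithelial cells and therefore leaves Apela intact in leukocytes. All mice were adults with both kidneys clamped for 30 min, and whole kidneys were taken on day 3, so no library analysed here came from uninjured tissue. The labels name the strain C57BL/6 x 129S4/SvJae and the tissue kidney, whereas the series' design text names adipose tissue and the study's methods name C57BL/6 alone. Age in weeks was not given for these mice.

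Dendritic cells take up antigen, carry it to lymph nodes and show it to T cells. FLT3 and its ligand drive their development, ZBTB46 marks the conventional lineage, BATF3 and the dead-cell receptor CLEC9A belong to the cross-presenting type 1 subset, and IRF4 serves the type 2 subset. On maturation the cells raise CD83, a protein that stabilises surface MHC class II and CD86, as well as CD86 itself, which binds CD28 and CTLA4 on T cells, and CD40, which receives CD40 ligand from helper T cells. Few of these genes are restricted to dendritic cells. CD11c, encoded by Itgax, is also carried by kidney macrophages, ZBTB46 by endothelial cells, and CD83, CD86, CD40 and IRF4 by B cells.

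Kidney identity was plain in all 4 libraries, in which the summed FPKM (fragments per kilobase of gene length, scaled by a total per library) of 10 tubular epithelial markers ran from 2246 to 2947. The targeted gene, Apela, had an FPKM of 5.27 and 4.57 in WT pools 1 and 2, and of 0.536 and 0.245 in KO pools 1 and 2. Reads on genes numbered between 16045724 and 16927742 per library. The total by which FPKM was scaled differed from these reads. In WT pool 2 it was above them, 17203609 against 16045724, and in the other pools it was below them. FPKM in WT pool 2 is therefore lower, relative to the other pools, than scaling by reads on genes would give. WT pool 2 stood apart from the other 3 pools in its leukocyte genes, with a summed FPKM of 140 over 10 pan-leukocyte genes against 58.1 to 66.0 in the others. In whole-kidney RNA, fewer cells of a type and less RNA per cell cannot be told apart.

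All 10 genes were low, and Flt3 and Cd209a were at or near the limit of detection. By mean FPKM over the 4 pools the order was Zbtb46 (1.43), Itgax (1.24), Cd40 (1.05), Batf3 (0.953), Cd83 (0.916), Cd86 (0.594), Irf4 (0.435), Clec9a (0.342), Cd209a (0.0663) and Flt3 (0.0199). FPKM is scaled by gene length, so these levels can be set side by side. Neighbours in this order overlapped in their range over the pools, with 1 exception, the step from Clec9a, whose lowest pool had 0.254, to Cd209a, whose highest had 0.113. The highest gene of the set, Zbtb46, lay above 54.8% of the 27251 genes with a read, and Flt3 above 9.21%.

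**Figure D1:**
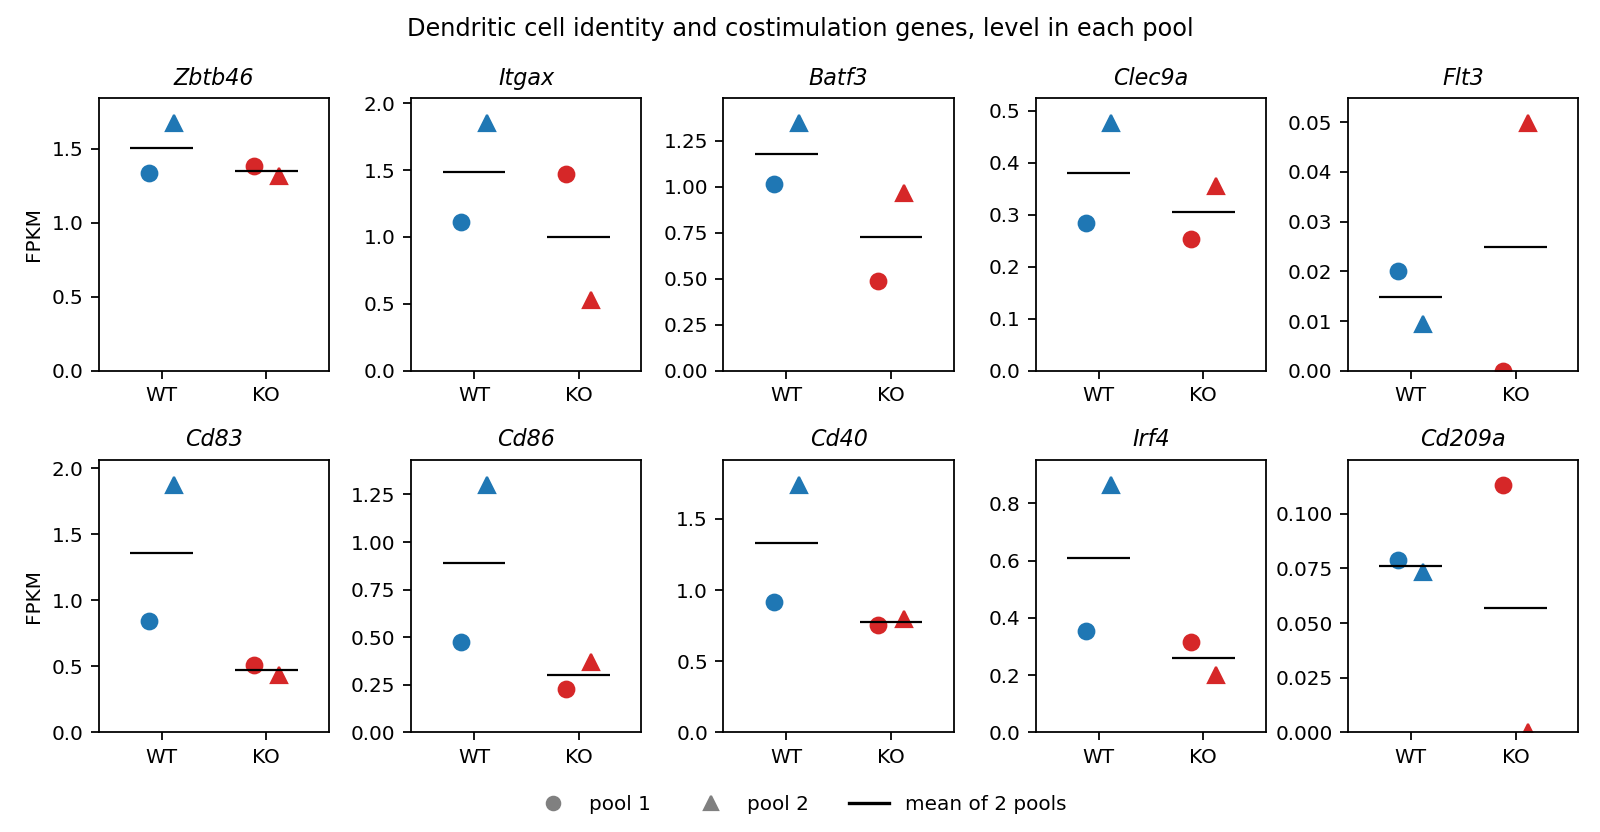
FPKM of each of the 10 genes (vertical axes, each starting at 0 with its own scale) in WT and KO pools, with circles for pool 1, triangles for pool 2 and a bar at the mean of 2 pools. WT pool 2 is the highest point for 8 genes, and both KO pools lie below both WT pools for Batf3, Cd83, Cd86, Cd40 and Irf4.

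The 3 costimulation and maturation genes had lower values in both KO pools than in either WT pool. Cd83 (ENSMUSG00000015396, plus strand of chromosome 13, 43784775 to 43803132 of GRCm38) had an FPKM of 0.847 and 1.88 in WT pools 1 and 2 and of 0.511 and 0.431 in KO pools 1 and 2. The groups did not overlap, and the WT mean of 1.36 ± 0.728 (SD, n = 2) was 2.89 times the KO mean of 0.471 ± 0.0568 (SD, n = 2). WT pool 2 alone held more reads than the other pools together, with 83 reads (95% Poisson interval 66.1 to 102.9) against 35 in WT pool 1 (24.4 to 48.7), 22 in KO pool 1 (13.8 to 33.3) and 18 in KO pool 2 (10.7 to 28.5). These intervals cover counting error only. The difference between KO and WT pools on the log2(FPKM + 0.5) scale was -0.88 (standard error 0.34, 95% interval -1.77 to 0.0070, adjusted p = 0.786, limma, Benjamini-Hochberg). Without WT pool 2 it was -0.47, and the log2 scale with its pseudocount understates changes of genes this low.

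Cd86 (ENSMUSG00000022901, minus strand of chromosome 16, 36603869 to 36666081) had the widest ratio between WT pools, 2.74, with an FPKM of 0.476 in pool 1 and 1.30 in pool 2. The KO pools had 0.229 and 0.370. Both KO values were under both WT values, yet WT pool 1 was closer to the KO pools than to WT pool 2. The log2 difference was -0.74 (standard error 0.38, 95% interval -1.75 to 0.27, adjusted p = 0.798, limma, Benjamini-Hochberg), and -0.29 without WT pool 2. Cd86 reached the level required for testing, a mean of 0.5 FPKM, only through that pool, since its mean over the other 3 pools was 0.358.

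Cd40 (ENSMUSG00000017652, plus strand of chromosome 2, 165055627 to 165072948), which encodes the receptor for helper T cell signals, had an FPKM of 0.913 and 1.74 in the WT pools and of 0.755 and 0.796 in the KO pools. The KO pools were nearly equal and lay just under WT pool 1, with 43 and 44 reads against 50. The log2 difference was -0.48 (standard error 0.29, 95% interval -1.24 to 0.27, adjusted p = 0.798, limma, Benjamini-Hochberg). It shrank to -0.15 without WT pool 2.

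Of the 3 transcription factors, Irf4 and Batf3 had both KO pools below both WT pools and Zbtb46 did not. Irf4 (ENSMUSG00000021356, plus strand of chromosome 13, 30749226 to 30766976) had an FPKM of 0.355 and 0.865 in the WT pools and of 0.317 and 0.201 in the KO pools. WT pool 2 was again far above the rest, and WT pool 1 with 28 reads and KO pool 1 with 26 reads were close. With a mean under 0.5 FPKM the gene was not tested in the main fit; its log2 difference was -0.51, and -0.18 without WT pool 2. Batf3 (ENSMUSG00000026630, plus strand of chromosome 1, 191097847 to 191108945) had an FPKM of 1.01 and 1.35 in the WT pools and of 0.487 and 0.964 in the KO pools. The separation rested on 1 read, 26 in WT pool 1 against 25 in KO pool 2, and KO pool 1 was the low one with 13. The log2 difference was -0.48 (standard error 0.28, 95% interval -1.22 to 0.27, adjusted p = 0.798, limma, Benjamini-Hochberg), -0.33 without WT pool 2 and -0.19 without KO pool 1.

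Zbtb46 (ENSMUSG00000027583, minus strand of chromosome 2, 181387762 to 181459426) was the steadiest of the 10 genes. WT pools had 1.34 and 1.67 FPKM and KO pools had 1.38 and 1.32, on 182 to 245 reads. The groups overlapped, and the log2 difference was -0.11 (standard error 0.18, 95% interval -0.58 to 0.36, adjusted p = 0.922, limma, Benjamini-Hochberg), and 0.0095 without WT pool 2. Endothelial markers, whose cells also carry ZBTB46, had a summed FPKM of 222 and 256 in the WT pools and of 299 and 320 in the KO pools. The separation of these sums rested on Plvap, at 103.0 and 110.1 in WT and 161.0 and 151.8 in KO pools. Without Plvap the sums of the groups overlapped. The part of endothelial cells in the Zbtb46 level was not tested.

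The sequence before the start site was available from RefSeq (GRCm38.p6) for 7 of the 10 genes and is shown for 3, Irf4 and Batf3 because their pools separated in 1 direction and Itgax as a gene whose pools overlapped. Each is read on the plus strand, 5′ to 3′, from 250 bases before the RefSeq start and ends before the first coding transcript of GENCODE M21. The Batf3 window lies inside the annotated span of its gene, whose GENCODE start is further upstream. The windows printed are chr13:30748983-30749225 for Irf4, chr1:191098164-191098324 for Batf3 and chr7:128129300-128129546 for Itgax. Capitals mark a match to a motif searched on both strands.
Irf4: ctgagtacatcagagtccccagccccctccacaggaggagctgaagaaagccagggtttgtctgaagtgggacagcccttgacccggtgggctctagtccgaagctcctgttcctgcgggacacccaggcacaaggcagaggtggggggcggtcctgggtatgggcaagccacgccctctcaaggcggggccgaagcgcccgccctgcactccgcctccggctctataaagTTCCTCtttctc
Batf3: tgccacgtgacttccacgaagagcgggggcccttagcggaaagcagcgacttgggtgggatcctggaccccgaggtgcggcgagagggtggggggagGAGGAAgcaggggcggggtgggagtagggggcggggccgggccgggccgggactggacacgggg
Itgax: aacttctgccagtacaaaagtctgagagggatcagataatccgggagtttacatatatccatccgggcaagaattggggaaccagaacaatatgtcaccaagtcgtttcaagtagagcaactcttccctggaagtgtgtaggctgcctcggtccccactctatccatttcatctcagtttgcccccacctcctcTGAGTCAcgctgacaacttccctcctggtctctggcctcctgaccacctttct
The capitals in Irf4 and Batf3 are GAGGAA, the core of sites for the myeloid factor PU.1, read on the minus strand in Irf4, 19 and 153 bases before the start. This core stands in 23.3% of 32851 RefSeq promoter windows of 250 bases. The capitals in Itgax are the AP-1 motif TGANTCA, 56 bases before its start, which 6.75% of all windows hold. Zbtb46 also held it, in a window at chr2:181424389-181424638 that lies inside the annotated span of its gene rather than at the annotated end. The ETS-IRF motif GGAANNGAA was found in Cd209a and in 6.99% of all windows. The kappaB motif GGNNTTTCC and the interferon response motif GAAANNGAA were in none of the 7 windows, and in 4.93% and 7.13% of all. GGAANNGAA can overlap both GAGGAA and GAAANNGAA. A match to letters is a description of the sequence and not a binding site.

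The 4 remaining genes encode surface receptors and showed no separation of the groups. Itgax (ENSMUSG00000030789, plus strand of chromosome 7, 128129547 to 128150657) had an FPKM of 1.11 and 1.85 in the WT pools and of 1.47 and 0.526 in the KO pools. Here the KO pools differed more than the WT pools, by 2.79 times against 1.66 times, and KO pool 2 was the lowest of the 4, on 41 reads (29.4 to 55.6) against 86 (68.8 to 106.2) in WT pool 1. The log2 difference was -0.46 (standard error 0.40, 95% interval -1.50 to 0.59, adjusted p = 0.854, limma, Benjamini-Hochberg), -0.18 without WT pool 2 and 0.015 without KO pool 2. Clec9a (ENSMUSG00000046080, plus strand of chromosome 6, 129408862 to 129424763) had an FPKM of 0.283 and 0.477 in the WT pools and of 0.254 and 0.355 in the KO pools, on 14 to 27 reads. The groups overlapped, with a log2 difference of -0.12, untested for its low mean, that became 0.036 without WT pool 2. In the annotation 184 of its exon bases are shared with its neighbour Clec1b on the same strand, which had 27 reads over all libraries.

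Flt3 (ENSMUSG00000042817, minus strand of chromosome 5, 147330741 to 147400489), the receptor on which dendritic cell development depends, had 2, 1, 0 and 5 reads in WT pools 1 and 2 and KO pools 1 and 2. Cd209a (ENSMUSG00000031494, minus strand of chromosome 8, 3743397 to 3748984), a lectin of monocyte-derived and type 2 dendritic cells, had 2, 2, 3 and 0 reads. With 3 reads or fewer taken as the limit of detection, 1 pool of 4 exceeded it for Flt3 and none for Cd209a. No fold change is given for either, and a difference between KO and WT pools was not detectable at this depth. Of the related lectin genes Cd209b to Cd209g, Cd209c had at most 1 read in a pool and the other 5 had 0 in all pools.

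Over the 10 genes, both KO pools lay below both WT pools for 5 (Batf3, Cd83, Cd86, Cd40 and Irf4) and above both for 0. Among all 15414 genes tested the corresponding shares were 18.1% and 19.7%. Cd86 entered the tested genes only through WT pool 2 and Irf4 was not among them. Cd83, with a KO mean of 0.471 FPKM, entered only through the WT pools. For these reasons nothing is read from the count of 5 against these shares. WT pool 2 was the highest pool for 8 of the 10 genes, and for 29.1% of all genes tested. For Cd83, Cd86, Cd40 and Irf4 the counting interval of WT pool 2 lay above those of both KO pools, whereas for none of the 5 separated genes did the interval of WT pool 1 lie above those of both KO pools. Leaving out WT pool 2, an alternative chosen after seeing the data, cannot remove any of these 5 genes, since WT pool 1 was the lower WT pool for each, and 32% of all genes tested had both KO pools below WT pool 1.

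Of the 6 genes that passed the filter, 0 had an adjusted p-value under 0.05 in limma with Benjamini-Hochberg adjustment, as for all 15414 genes (0%), where the smallest was 0.466. At an unadjusted p under 0.05 none of the 6 was called, while 3.03% of all genes were called in the direction of lower in KO. The nearest was Cd83 with an unadjusted p of 0.0512 in limma. Its KO mean of 0.471 FPKM was under the 0.5 FPKM required for testing. Cd83 was thus tested only through the WT pools, and nothing is read from its unadjusted p-values. Cd83 passed the unadjusted threshold with a pseudocount of 0.1, without the variance trend and with voom weights on the recovered reads, where its log2 difference was -1.42 (adjusted p = 0.766, limma, Benjamini-Hochberg). Cd83, Cd86 and Cd40 also passed it without WT pool 1, where WT pool 2 stands alone and is assumed to vary like the KO pools, with log2 differences of -1.29, -1.18 and -0.81. Under that setting 4.94% of all genes were called lower in KO, and Cd86 is among the tested genes only through the WT pool that was kept. Over the pseudocounts, the unfiltered fit, quantile normalization, voom and the replicate block, the adjusted p of Cd83 in limma ranged from 0.766 to 0.824. With this number of pools even complete separation gives p = 0.33 in a two-sided exact permutation test, the smallest it can give.

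**Figure D2:**
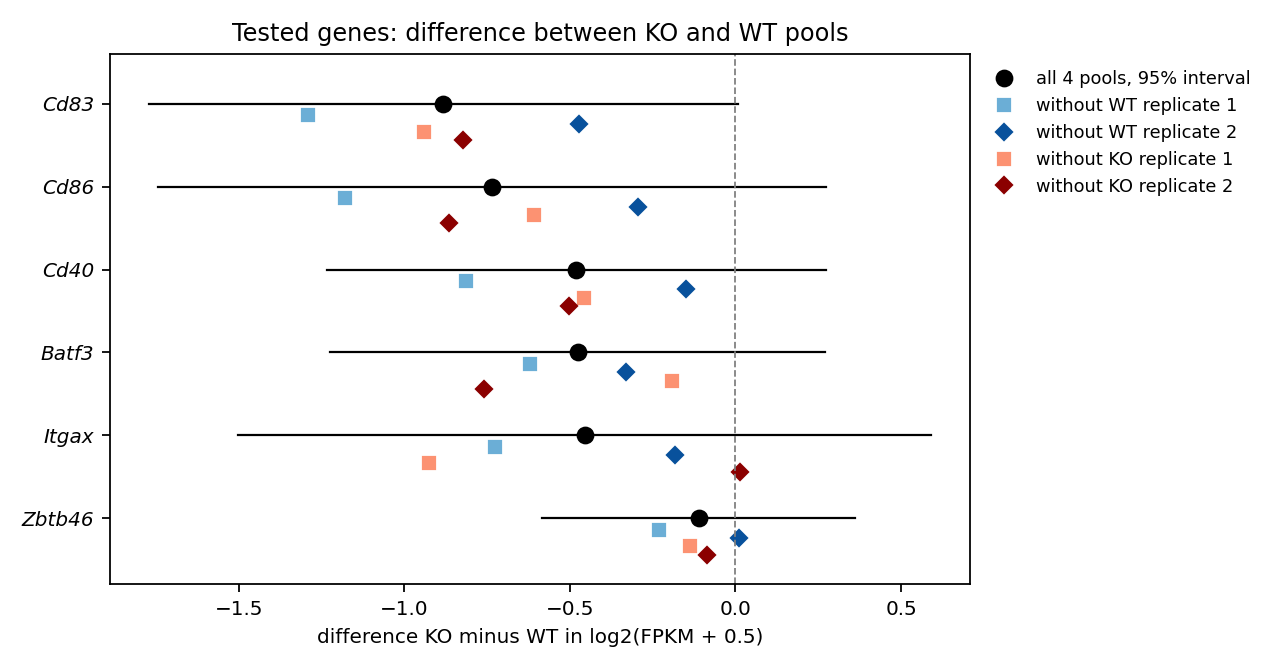
Difference between KO and WT pools in log2(FPKM + 0.5) (horizontal axis) for the 6 tested genes, with black circles and 95% intervals from limma for all 4 pools and coloured marks for the difference with each pool left out. All 6 intervals span 0, and the marks without WT replicate 2 lie nearer to 0 than the black circles for each gene.

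WT pool 2 had the highest sum both of the 10 genes and of the pan-leukocyte genes, but the other pools ranked differently. The 10 genes summed to 6.44 and 11.2 FPKM in WT pools 1 and 2 and to 5.52 and 5.01 in KO pools 1 and 2. The pan-leukocyte genes summed to 59.5, 140, 58.1 and 66.0 in the same order. Relative to the summed pan-leukocyte genes of the same pool, Cd83 stood at 1.42 and 1.34 FPKM per 100 FPKM in the WT pools and at 0.880 and 0.653 in the KO pools. On this scale the WT pools were close to each other and the KO pools lay below both. Cd86 stood at 0.799 and 0.927 in the WT pools and at 0.393 and 0.561 in the KO pools, and Irf4 at 0.597 and 0.617 against 0.546 and 0.305. These were the 3 genes whose KO pools lay below both WT pools in this ratio, beside 1.16% of all genes tested. Division by a sum that was highest in WT pool 2 lowers every gene in that pool, so nothing is read from the count against this share. On the log2 scale with the pseudocount, the differences relative to the pan-leukocyte genes were smaller than the unscaled ones, at -0.37 for Cd83, -0.22 for Cd86 and -0.00022 for Irf4. Cd40 overlapped, from 1.24 to 1.53 in WT and from 1.21 to 1.30 in KO pools, as did Batf3, Itgax, Zbtb46 and Clec9a. Relative to 16 macrophage markers the separated genes were Cd83, Cd86, Irf4 and Cd40, beside 2.16% of all genes tested on that scale, with the same limit. These ratios were added after seeing the data and carry no test.

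**Figure D3:**
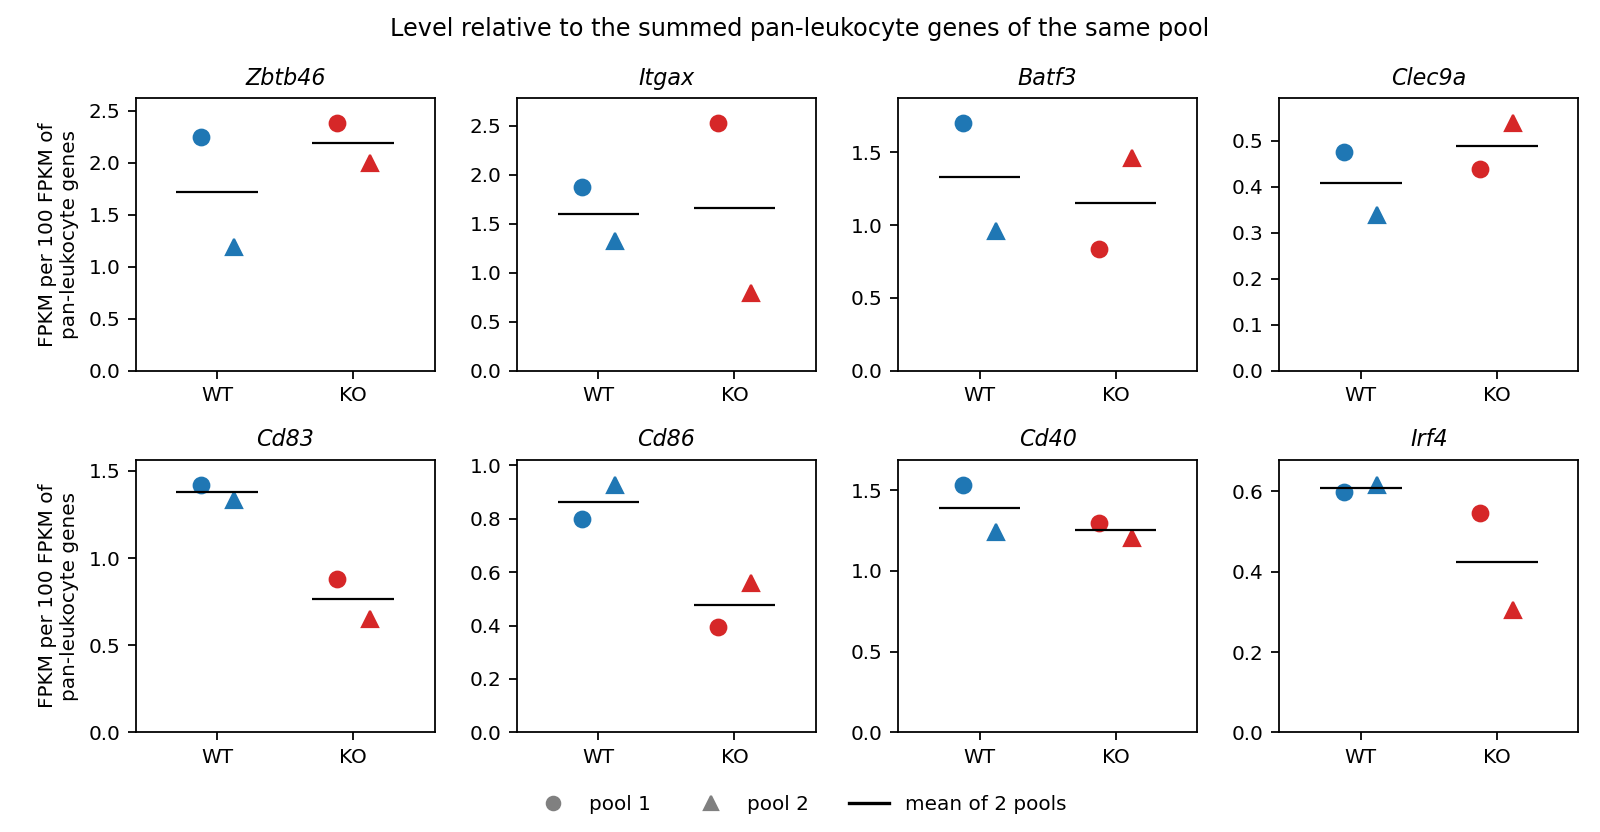
FPKM of 8 of the genes per 100 FPKM of the summed pan-leukocyte genes of the same pool (vertical axes, each starting at 0), with circles for pool 1, triangles for pool 2 and a bar at the mean. The WT points of Cd83, Cd86 and Irf4 lie close together and above both KO points, while the groups overlap for the other 5 genes.

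Ligands and receptors that pair with the described genes came from a list of 13, of which 8 were tested, 0 had an adjusted p-value under 0.05 and 7 had a lower mean in KO pools (median log2 difference -0.30, with -0.61 without WT pool 1 and -0.0014 without WT pool 2). The median over all genes tested was 0.0071. Flt3l, the FLT3 ligand, was measured on 47 to 77 reads, with an FPKM of 0.931 and 1.15 in the WT pools and of 0.910 and 0.746 in the KO pools. The ligand was thus detected where its receptor was at the limit of detection. The T cell partners of CD86 and CD40 were nearly absent: Cd28 had at most 1 read, Ctla4 at most 2 and Cd40lg at most 3 in any pool. The most abundant genes of the list were Csf2ra, a receptor chain for the dendritic cell growth factor GM-CSF, at 12.6 and 19.0 FPKM in WT and 16.4 and 14.5 in KO pools, and Csf1, the macrophage growth factor, at 9.86 and 22.3 in WT and 9.01 and 10.4 in KO pools. Il4, a cytokine used to derive dendritic cells in culture, was the 1 tested gene of this list with an unadjusted limma p under 0.05 (adjusted p = 0.785, limma, Benjamini-Hochberg), with an FPKM of 1.17 and 1.52 in WT and of 0.633 and 0.251 in KO pools. Among all genes tested, 3.03% were called lower in KO at that threshold. With a KO mean of 0.442 FPKM, Il4 reached the level for testing only through the WT pools, so nothing is read from this call.

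Other costimulatory and coinhibitory ligands numbered 13, of which 7 were tested, 0 passed the adjusted threshold and all 7 had a lower mean in KO pools (median log2 difference -0.32, with -0.68 without WT pool 1 and -0.011 without WT pool 2). Both KO pools were below both WT pools for 2 of the 7 and above for 0, beside 18.1% and 19.7% of all genes tested. The leading genes were Icam1, the adhesion ligand of LFA-1, at 15.0 and 24.5 FPKM in WT and 15.8 and 8.22 in KO pools, and Vsir, which encodes the coinhibitory protein VISTA, at 2.73 and 5.98 in WT and 3.08 and 3.83 in KO pools. Both overlapped between groups. Cd80, the other ligand of CD28 and CTLA4, had 3 and 9 reads in WT and 0 and 4 in KO pools, so CD86 transcripts exceeded those of CD80 in FPKM in every pool.

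Signal transduction downstream of CD40 was covered by 14 genes of NF-kB signalling, of which 12 were tested, 0 passed the adjusted threshold and 9 had a lower mean in KO pools (median log2 difference -0.21, with -0.41 without WT pool 1 and -0.0050 without WT pool 2). Nfkbia, the inhibitor and target of NF-kB, stood at 30.3 and 37.1 FPKM in WT and 42.6 and 30.3 in KO pools, and Rela, the p65 subunit, at 25.3 and 38.0 in WT and 29.7 and 26.5 in KO pools. Neither separated the groups, and both KO pools were below both WT pools for 1 of the 12 and above for 1, beside 18.1% and 19.7% of all genes tested.

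Other genes of the dendritic cell subsets came from 4 lists. Of 10 genes of the type 1 subset 7 were tested, with 0 past the adjusted threshold and a median log2 difference of -0.15 (-0.22 without WT pool 1 and 0.019 without WT pool 2). Irf8, the factor of the type 1 lineage that B cells and macrophages also carry, stood at 3.77 and 4.92 FPKM in WT and 3.57 and 4.11 in KO pools, and the receptor Xcr1 had 1 read in 1 pool and 0 in the rest. The list was led by genes that many kidney cells express, Id2, an inhibitor of helix-loop-helix factors, at 111.5 and 113.9 FPKM in WT and 112.0 and 124.6 in KO pools, and Nfil3 at 9.09 and 7.92 in WT and 12.1 and 6.20 in KO pools. Of 14 genes of the type 2 and monocyte-derived subsets 5 were tested and 0 passed, with a median of -0.68 (-0.28 without WT pool 2 and -1.23 without WT pool 1). Both KO pools were below both WT pools for Sirpa, Mgl2 and Ltb and above for Klf4, beside 18.1% and 19.7% of all genes tested. Ltb, which encodes lymphotoxin beta, reached the level for testing only through WT pool 2, with a mean of 0.271 FPKM over the other 3 pools, so nothing is read from this count. Sirpa, a phagocyte receptor for CD47, stood at 16.6 and 29.4 FPKM in WT and 14.5 and 12.8 in KO pools (adjusted p = 0.788, limma). Klf4, a factor of monocytes and endothelium, was the 1 tested gene of that list higher in KO pools, at 7.33 and 8.05 in WT and 9.84 and 9.37 in KO pools (unadjusted p = 0.0477, adjusted p = 0.786, limma). Mgl2, the lectin CD301b, had 2.23 and 3.36 FPKM in WT and 1.48 and 0.176 in KO pools. Its log2 difference of -1.49 (unadjusted p = 0.0489, adjusted p = 0.786, limma) rested largely on KO pool 2 with 6 reads, and was -0.71 without it.

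Of 8 plasmacytoid dendritic cell genes 3 were tested and 0 passed, and the defining gene Siglech had at most 2 reads in a pool. Bst2, an interferon-induced protein of many cell types, led the list at 34.3 and 62.0 FPKM in WT and 25.9 and 17.8 in KO pools (log2 difference -1.08, -0.66 without WT pool 2, unadjusted p = 0.029, adjusted p = 0.785, limma), and Tcf4, the factor of the lineage that is also broadly expressed, stood at 1.30 and 1.48 in WT and 1.24 and 1.37 in KO pools. Of 14 genes of mature and migratory dendritic cells 11 were tested and 0 passed, with a median of -0.013 (-0.10 without KO pool 1 and 0.085 without KO pool 2). Both KO pools were below both WT pools for Marcks and above for Ccl17, Il15ra and Nudt17, 1 and 3 of the 11, beside 18.1% and 19.7% of all genes tested. Ccl17 and Nudt17 had WT means of 0.287 and 0.431 FPKM and reached the level for testing only through the KO pools, so nothing is read from this count. Tmem123 stood at 31.0 and 34.6 FPKM in WT and 34.5 and 30.4 in KO pools, and Marcksl1 at 18.9 and 31.3 in WT and 20.0 and 19.0 in KO pools. Il15ra, a receptor chain that presents interleukin 15, stood at 3.72 and 3.06 FPKM in WT and 6.16 and 4.0 in KO pools. Ccr7, the chemokine receptor of migrating cells, had 7 and 5 reads in WT and 2 and 3 in KO pools, and Il12b and Ccl22 had at most 1 and 2 reads in any pool.

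Markers of other cells that carry the described genes were read in the same pools. The 10 pan-leukocyte genes were all tested and all had a lower mean in KO pools (median log2 difference -0.54, 0 past the adjusted threshold). The median was -1.10 without WT pool 1 and 0.032 without WT pool 2, so its direction rested on WT pool 2, and WT pool 2 was the highest for all 10. Tyrobp, an adaptor of myeloid receptors, stood at 14.5 and 33.8 FPKM in WT and 13.2 and 18.3 in KO pools, and Fcer1g, a chain of Fc receptors, at 12.0 and 28.1 in WT and 11.1 and 11.2 in KO pools. Of 16 macrophage markers 14 were tested and 0 passed (median -0.51, with -1.06 without WT pool 1 and 0.034 without WT pool 2), 10 with a lower and 4 with a higher mean in KO pools, with a summed FPKM of 217 and 495 in WT and 274 and 242 in KO pools, so the sums of the groups overlapped. Cd163, a scavenger receptor of resident macrophages, was the 1 gene of the list with an unadjusted limma p under 0.05, and was higher in both KO pools, at 0.422 and 0.341 FPKM in WT and 0.865 and 1.14 in KO pools (adjusted p = 0.785, limma). With a WT mean of 0.381 FPKM, Cd163 reached the level for testing only through the KO pools, so nothing is read from this call. The list was led by Lyz2 at 57.5 and 164.4 in WT and 89.2 and 104.1 in KO pools, and C1qb at 42.0 and 103.1 in WT and 41.4 and 33.9 in KO pools.

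Of 10 B cell and plasma cell markers 4 were tested and 0 passed the adjusted threshold (median -0.26, with -0.66 without WT pool 1 and -0.084 without WT pool 2), with a summed FPKM of 7.98 and 15.9 in WT and 6.43 and 6.73 in KO pools. The separation of these sums rested on Ighm, without which they were 4.91 and 8.57 in WT and 5.2 and 5.69 in KO pools and overlapped. Ighm, the heavy chain of IgM, stood at 3.07 and 7.30 FPKM in WT and 1.24 and 1.04 in KO pools (log2 difference -1.69, -1.12 without WT pool 2, unadjusted p = 0.00966, adjusted p = 0.722, limma), and Jchain, of plasma cells, at 1.31 and 4.80 in WT and 1.16 and 3.01 in KO pools. Ms4a1, which encodes the B cell surface protein CD20, had 3 and 2 reads in WT and 0 in both KO pools. The part of macrophages or B cells in the values of Cd83, Cd86, Cd40 and Irf4 was not tested.

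T and NK cell markers were low, with 1 of 12 tested, 0 past the adjusted threshold and a summed FPKM of 1.77 and 3.96 in WT and 1.85 and 1.40 in KO pools. Trac stood at 0.266 and 1.06 FPKM in WT and 0.959 and 0.395 in KO pools, and Nkg7 at 0.272 and 0.827 in WT and 0.262 and 0.269 in KO pools. Cd4 had 14 and 33 reads in WT and 9 and 8 in KO pools, and Cd8a 19 and 20 against 1 and 8. Both KO pools were below both WT pools for Cd3d, Cd3g, Cd4, Cd8a, Cd8b1, Ncr1 and Nkg7 and above for Foxp3 and Klrb1c. These genes were untested for their low means, so nothing is read from this. Of 9 neutrophil markers 5 were tested and 0 passed, 3 of the 5 were highest in WT pool 2, the median was 0.31 (from -0.40 without KO pool 2 to 0.64 without WT pool 2) and the summed FPKM was 11.4 and 23.0 in WT and 12.3 and 29.9 in KO pools. S100a9 stood at 4.29 and 11.5 FPKM in WT and 4.35 and 11.0 in KO pools and S100a8 at 4.21 and 5.86 in WT and 4.82 and 9.23 in KO pools, while Ly6g and Camp were at 0 in all pools. Of 12 endothelial markers, all tested with 0 passing, 11 had a higher mean in KO pools (median 0.20, with 0.050 without WT pool 1 and 0.33 without WT pool 2), led by Plvap at 103.0 and 110.1 in WT and 161.0 and 151.8 in KO pools and Eng at 38.7 and 49.7 in WT and 45.0 and 56.9 in KO pools. The 10 tubular markers had a median of 0.00017 (-0.12 without WT pool 2) with 0 passing, led by Umod at 1080 and 788 in WT and 1133 and 858 in KO pools and Slc34a1 at 898 and 689 in WT and 365 and 609 in KO pools.

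**Figure D4:**
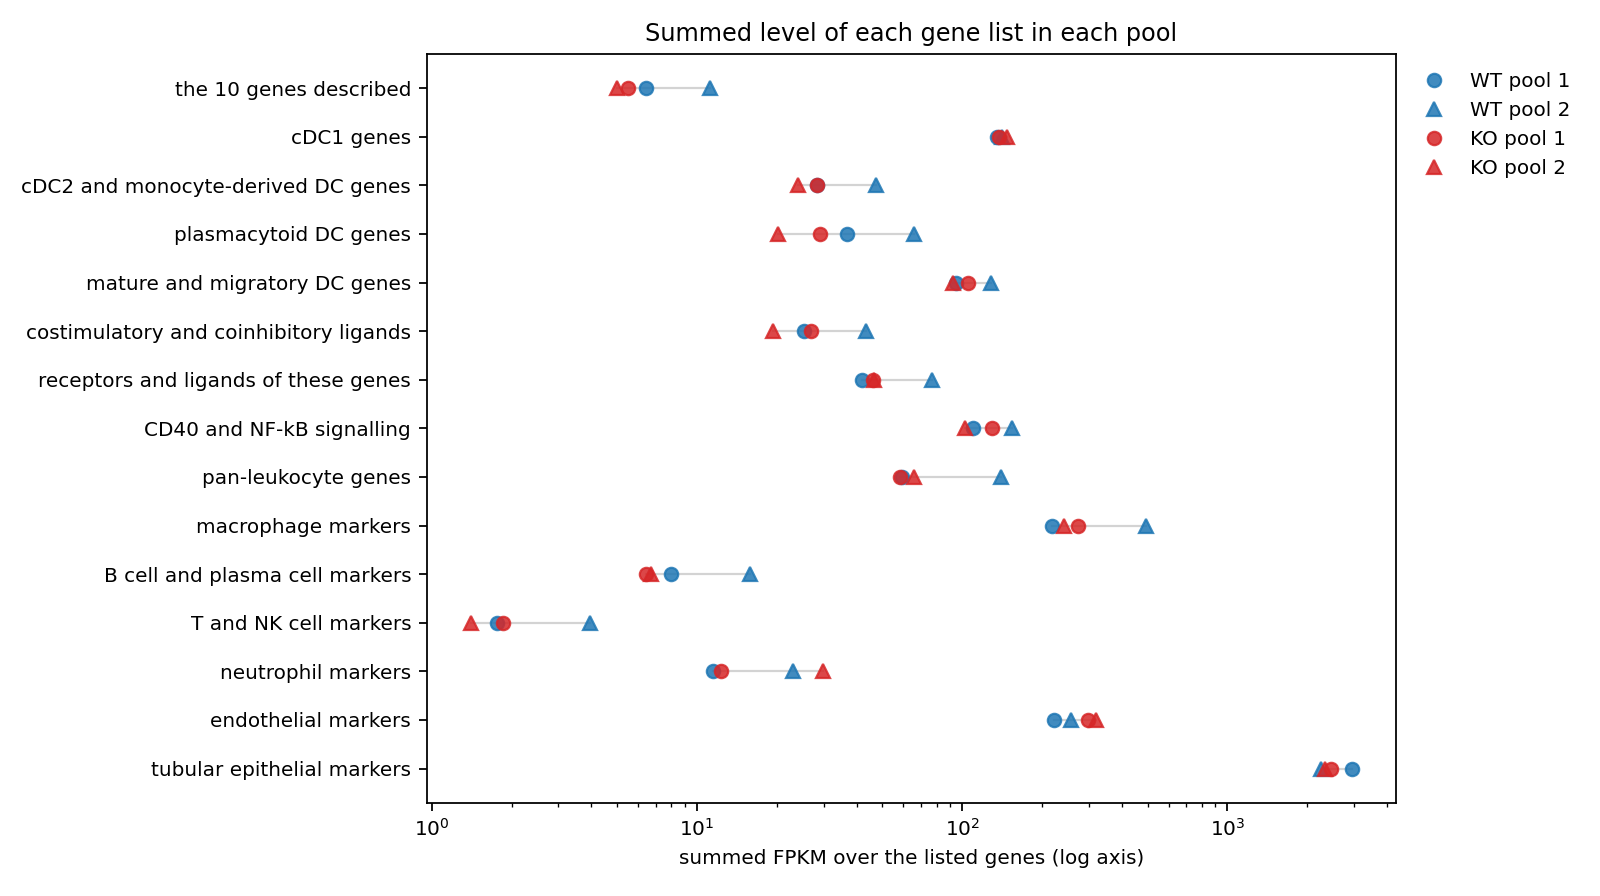
Summed FPKM (horizontal log axis) of each gene list in the 4 pools, with blue for WT, red for KO, circles for pool 1 and triangles for pool 2 (cDC1 and cDC2 are the type 1 and type 2 dendritic cell subsets). KO pool 2 has the highest sum for the cDC1 genes, the neutrophil markers and the endothelial markers, and WT pool 1 for the tubular epithelial markers. WT pool 2 has the highest sum for every other list, the 10 genes described among them.

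Across the 4 pools, the listed genes whose profile lay nearest to the mean profile of the 6 tested genes were Tnfaip3, Ikzf1, Marcksl1, Nfkb2 and Marcks, out of 109 candidates. Likeness was the Euclidean distance between centred log2(FPKM + 0.5) values, from 0.200 for Tnfaip3 to 0.237 for Marcks. Among the 6 genes themselves the distance to their mean profile ran from 0.0985 for Cd40 to 0.641 for Itgax. Tnfaip3, an inhibitor of NF-kB signalling, stood at 2.63 and 4.16 FPKM in WT and 2.42 and 1.84 in KO pools, and Ikzf1, a factor of lymphoid and myeloid cells, at 0.819 and 1.77 in WT and 0.869 and 0.714 in KO pools. A profile of 4 points is short, and these 5 and the 6 tested genes all had their highest value in WT pool 2.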

How the data were processed

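RNA-seq was analysed for 4 kidney libraries, WT and KO with n = 2 pools each, grouped by the sample titles. The authors deposited FPKM per gene from poly-A libraries, and whether strand was used in counting is not given in the sources used here. The submitters' processing notes name HISAT2 2.0.5 and GRCm38.p6, and the counting tool is not given in the sources used here. Gene coordinates were identical to GENCODE M21 for 97.1% of 53620 shared genes and for all 10 genes described. Reads per gene were recovered from the size of 1 read in FPKM multiplied by length, and 100% of nonzero values came out whole (within 0.01 of a read). Differences were tested across all genes as log2(FPKM + 0.5) with limma 3.58.1 (R 4.3.3, eBayes with trend) in the 15414 genes whose mean reached 0.5 FPKM, two-sided, without covariates, with Benjamini-Hochberg adjustment over all of them. Poisson intervals are exact at 95% and cover counting error only. The p-values measure the spread between pools, which averages over mice. The alternatives tried were quantile normalization, pseudocounts of 0.1 and 1, a filter at a mean of 1 FPKM or none, no trend, voom on recovered reads of genes with at least 10 reads, the replicate block and each pool left out. The genes and lists were chosen with earlier results of these data known. The text names all 10 genes, the 2 most abundant of each list, any list gene past the adjusted threshold (there was none) and the 5 of nearest profile, and other list genes were named after their values were seen. Itgam stands on 2 identifiers, and the one with reads was used. The fit was tested on simulated data before use. Promoter windows were read from RefSeq with Python 3.11.15, pandas 2.3.3, numpy 2.4.6 and scipy 1.17.1.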

Additional observations from a re-analysis of the deposited data

How the results depend on the processing

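The count of genes with an adjusted p-value under 0.05 (limma, Benjamini-Hochberg) was 0 under every alternative run, for all genes and for the genes described, and 974 of all genes and 0 of the genes described had an unadjusted p under 0.05. The genes without overlap of the groups were 4 of 6 tested, beside 18.1% below and 19.7% above for all genes, and 1 of 3 with a mean FPKM of at least 1, where fewer genes are tested. Cd86 was among the 4 only through WT pool 2 and Cd83 only through the WT pools. The 1 of 3 was Cd40, which reached a mean FPKM of 1 only through WT pool 2. Its mean over the other pools was 0.821. Nothing is read from these counts. The log2 differences of Cd83, Cd86 and Irf4 kept their direction under all alternatives run but shrank to -0.37, -0.22 and -0.00022 relative to the pan-leukocyte genes. As ratios to the summed list, without the pseudocount, WT and KO means were 1.38 and 0.767 for Cd83, 0.863 and 0.477 for Cd86 and 0.607 and 0.425 for Irf4. Voom on recovered reads gave larger log2 differences, -1.42 for Cd83, -1.43 for Cd86, -1.13 for Irf4, -0.76 for Batf3 and -0.29 for Clec9a. The log2 differences that changed sign were Itgax, to 0.015 without KO replicate 2 and 0.059 relative to the pan-leukocyte genes, and Zbtb46, to 0.0095 without WT replicate 2, 0.40 relative to the pan-leukocyte genes and 0.22 relative to the macrophage markers. Clec9a changed to 0.036 without WT replicate 2 and to 0.39 and 0.21 relative to the same lists, and Batf3 and Cd40 to 0.038 and 0.033 relative to the pan-leukocyte genes. As ratios to the summed list, without the pseudocount, Batf3 and Cd40 stayed lower in KO pools on average, though the groups overlapped. Their WT and KO means were 1.33 and 1.15 for Batf3 and 1.39 and 1.25 for Cd40. The scalings to leukocyte lists were chosen after seeing the data, and the cause of the changes listed here was not tested. With a pool left out, Cd83 ranged from -1.29 to -0.47, Cd86 from -1.18 to -0.29, Cd40 from -0.81 to -0.15, Batf3 from -0.76 to -0.19, Irf4 from -0.85 to -0.18, Itgax from -0.93 to 0.015, Zbtb46 from -0.23 to 0.0095 and Clec9a from -0.28 to 0.036. Without WT replicate 2 the medians of the pan-leukocyte genes and macrophage markers turned from -0.54 and -0.51 to 0.032 and 0.034. The neutrophil median turned from 0.31 to -0.15 without WT replicate 1 and to -0.40 without KO replicate 2, and the type 2 subset median moved from -0.68 to -1.23 without WT replicate 1. The plasmacytoid median moved from -0.063 to -0.57 with a mean FPKM of at least 1. The T and NK cell median turned from 0.065, on 1 tested gene, to -1.29 with voom. Both of these settings test a different set of genes. The pools share replicate numbers only, and pools of equal number deviated from the group means with a correlation of -0.0017 across genes. With the replicate block 0 genes passed and 932 had an unadjusted p under 0.05, none of them among the genes described. Depth limits Flt3 and Cd209a, which held 8 and 7 reads in all.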
